A study of Mus musculus with 17 samples.

Results

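*Sp8*, *Sp9*, *Six3*, *Dlx1*, *Dlx2*, *Dlx5*, *Dlx6* and *Isl1* are transcription factor genes best known from the development of inhibitory neurons, and their levels were measured in astrocytes of the cortex and of the thalamic nuclei. The genes were chosen by name, with their levels in these libraries already known, so the levels are given as a description, with no test between groups. Of the 8 genes, 7 had counts among the 26556 genes of the libraries, and *Isl1* was not analysed here. The data are 17 RNA-seq libraries of green cells sorted from P7 mice carrying the Gfap::GFP transgene on the FVB strain, in which the *Gfap* promoter drives green fluorescent protein. The cells came from the primary somatosensory cortex (Cortex, 4 libraries), the dorsolateral geniculate nucleus of the visual pathway (dLG, 5), the ventral posteromedial nucleus of the somatosensory pathway (VPM, 4) and the ventral part of the medial geniculate nucleus of the auditory pathway (MGv, 4). All groups shared genotype, strain and age, no group was treated, and each library was made from 4 pooled brains, so that differences between single animals within a pool were not measured.

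Inhibitory neurons of the forebrain use GABA as transmitter, and those of the cortex are born far from the cortical plate. In the ganglionic eminences of the telencephalon, *Dlx1* and *Dlx2* act first in a cascade of homeodomain factors that switches on *Dlx5*, *Dlx6* and the genes for GABA synthesis. *Sp8* and *Sp9* encode related zinc finger factors of the same territory, and *Six3* encodes a homeodomain factor of the anterior forebrain that also takes part in striatal neuron development. Astrocytes arise from radial glia of the same regions, and none of these factors is a classical astrocyte marker.

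The genes lie in few places of the genome (GRCm38). *Dlx1* (ENSMUSG00000041911, chr2:71528113-71533981, plus strand) and *Dlx2* (ENSMUSG00000023391, chr2:71543408-71546754, minus strand) face each other at a distance of 9.4 kb. *Sp9* (ENSMUSG00000068859, chr2:73271925-73284706, plus strand) lies on the same chromosome, 1725.2 kb from *Dlx2*. *Dlx5* (ENSMUSG00000029755, chr6:6877805-6882085, minus strand) and *Dlx6* (ENSMUSG00000029754, chr6:6863334-6868568, plus strand) form another such pair with 9.2 kb between them. *Six3* (ENSMUSG00000038805, chr17:85613608-85629302) and *Sp8* (ENSMUSG00000048562, chr12:118846329-118852576) are both on the plus strand of chromosomes of their own. All 7 are protein-coding. The library kit does not mark strand, and whether reads were counted by strand is not given in the sources used here. At most 6.21% of the exonic length of any of them, that of *Dlx1*, overlaps a gene on the other strand. Of the 50-base stretches of *Sp9* exons, 0.881% also occur in its relative *Sp5*.

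The promoters of the genes with the highest levels are shown because *Six3* and *Sp9* are the genes of the dLG pattern described below, and *Dlx1* and *Dlx2* those of the cortical pattern. They are RefSeq sequences of GRCm38.p6, from 250 bases before to 50 bases after the annotated start, 5′ to 3′ on the strand of the gene. Entries existed for 6 of the 8 genes, with none for *Dlx5* and *Dlx6*. Capitals mark GGGCGG on either strand, the GC box that proteins of the Sp family can bind.
Six3: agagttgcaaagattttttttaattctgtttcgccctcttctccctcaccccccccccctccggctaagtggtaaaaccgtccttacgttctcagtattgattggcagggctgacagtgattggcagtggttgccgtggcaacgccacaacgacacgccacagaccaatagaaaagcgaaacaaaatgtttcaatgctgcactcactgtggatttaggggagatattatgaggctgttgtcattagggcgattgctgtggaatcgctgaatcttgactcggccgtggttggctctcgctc
Sp9: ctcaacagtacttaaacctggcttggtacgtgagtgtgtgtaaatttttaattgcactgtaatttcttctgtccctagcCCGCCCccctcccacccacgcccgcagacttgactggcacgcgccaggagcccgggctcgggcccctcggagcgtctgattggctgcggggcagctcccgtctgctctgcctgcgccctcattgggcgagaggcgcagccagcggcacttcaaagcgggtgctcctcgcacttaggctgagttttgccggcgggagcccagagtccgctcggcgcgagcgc
Dlx1: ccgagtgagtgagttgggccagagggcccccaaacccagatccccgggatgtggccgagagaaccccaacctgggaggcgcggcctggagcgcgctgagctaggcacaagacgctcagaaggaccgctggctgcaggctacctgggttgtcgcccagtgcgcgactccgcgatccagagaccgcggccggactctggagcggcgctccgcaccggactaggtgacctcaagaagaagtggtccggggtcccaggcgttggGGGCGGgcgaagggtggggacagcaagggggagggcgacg
Dlx2: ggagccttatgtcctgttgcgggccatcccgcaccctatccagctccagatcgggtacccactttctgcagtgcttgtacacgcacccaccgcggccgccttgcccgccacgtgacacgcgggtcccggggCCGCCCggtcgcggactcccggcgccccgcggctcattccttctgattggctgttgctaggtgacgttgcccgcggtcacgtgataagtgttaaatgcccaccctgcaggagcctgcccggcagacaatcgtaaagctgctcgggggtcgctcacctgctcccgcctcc

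These windows are at chr17:85620584-85620883 (*Six3*), chr2:73271676-73271975 (*Sp9*), chr2:71529195-71529494 (*Dlx1*) and chr2:71546705-71547004 (*Dlx2*). *Sp9*, *Dlx1* and *Dlx2* each held 1 GC box and *Six3* held none, whereas 35.66% of 32851 promoters of the same length held at least 1. The homeodomain core TAATTA, which is its own reverse complement, occurred in none of these 4 windows and in 5.29% of all. GC content was 50% in *Six3*, 63.7% in *Sp9*, 69.3% in *Dlx1* and 66.3% in *Dlx2*, beside a median of 52.7% over all promoters. The box thus occurred in genes of both patterns.

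Library totals ranged from 18213687 to 50366363 counts, and 3 counts, the limit taken for detection, corresponded to between 0.0648 and 0.167 CPM (counts relative to library size, scaled by the TMM method). This limit covers counting error only. Summed over 11 astrocyte marker genes, the level was 13120 to 14110 CPM in Cortex and 7988 to 9535 CPM in dLG. In VPM it was 6876 to 9435 CPM and in MGv 6421 to 15710 CPM. The glutamate transporter gene *Slc1a3* averaged 5227 CPM ± 514.3 (SD, n = 4) in Cortex and between 1494 and 1679 in the nuclei. *Gfap*, whose promoter marks the sorted cells, averaged 12.3 CPM ± 4.77 (SD, n = 4) in VPM and 1862 ± 2492 (SD, n = 4) in MGv. Markers of other cells were also present in all libraries. The summed level of 8 oligodendrocyte lineage genes lay between 6121 and 11130 CPM, and that of 10 neuronal genes between 900.9 and 2343 CPM. In VPM replicates a, c and d, and in no other library, the oligodendrocyte lineage sum exceeded the astrocyte sum, on lists of unlike length. In sorted bulk samples, fewer cells of a type and less RNA per cell cannot be told apart, and the part of other cells in the levels below was not tested.

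The genes fell into 2 patterns. *Sp9* and *Six3* were highest in dLG astrocytes, where every library lay above every library of the other 3 groups. *Dlx1*, *Dlx2*, *Dlx6* and *Sp8* were at their highest in cortical astrocytes, above every thalamic library, and *Dlx5* was highest in Cortex with an overlap. Of 17856 genes left after low counts were removed, 0.241% stood above all other libraries in dLG and 3.10% in Cortex, and 1.67% had, like *Six3*, all thalamic libraries above all cortical ones. Since the genes were picked for these patterns, nothing is read from the comparison. Only 5 of the 7 measured genes passed that filter in the fit of all 17 libraries, without *Sp8* and *Dlx6*. In the fit of the 13 thalamic libraries *Sp9* and *Six3* alone passed.

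**Figure D1:**
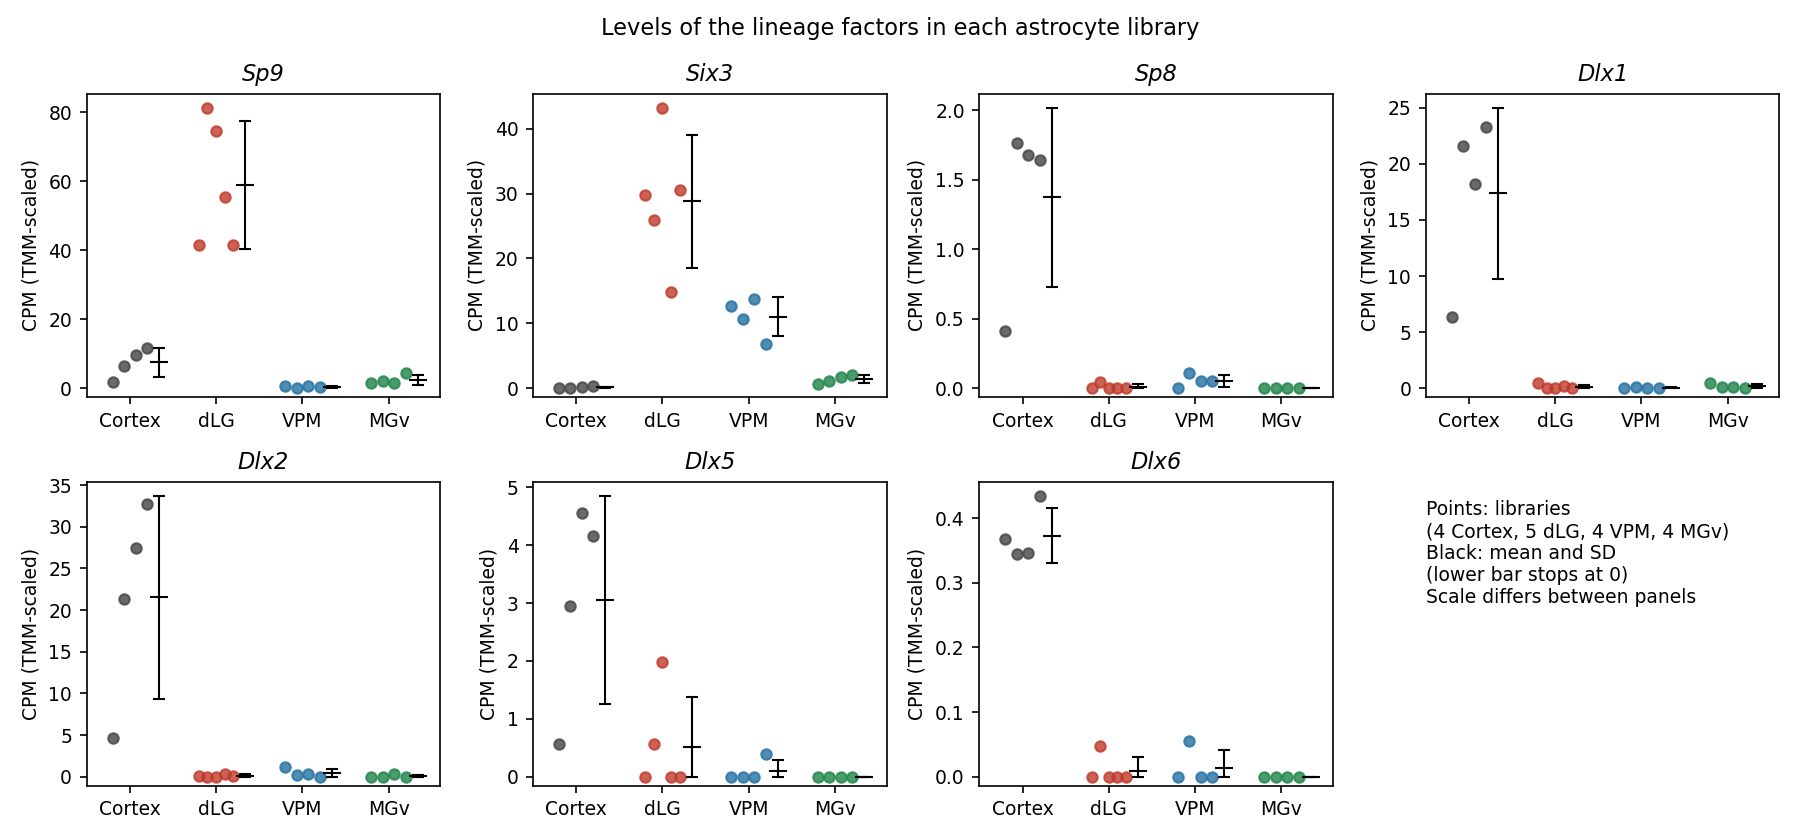
Level of each gene in CPM (vertical axis, linear, its own range in each panel) in the 4 Cortex, 5 dLG, 4 VPM and 4 MGv libraries. Points are libraries in no particular order and black marks show mean and SD. *Sp9* in dLG lies between 41.7 and 81.4 CPM, and *Dlx2* in Cortex between 4.71 and 32.7 CPM.

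*Sp9*, a factor required for the formation of several inhibitory neuron types, was counted 826 to 1705 times in each dLG library. Its level there was 41.7, 81.4, 74.8, 55.5 and 41.7 CPM in replicates a to e. In Cortex it was 1.97, 6.59, 9.75 and 11.8 CPM in replicates a to d. The dLG libraries were thus far above those of the cortex, which spread over a wide range with replicate a lowest. In MGv the levels were 1.68, 2.02, 1.47 and 4.39 CPM. In VPM they were 0.668, 0, 0.650 and 0.443 CPM, from at most 14 counts. VPM was the lowest group, and no VPM library reached the lowest of MGv.

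The mean of *Sp9* was 59.0 CPM ± 18.5 (SD, n = 5) in dLG, 7.52 ± 4.27 (SD, n = 4) in Cortex, 2.39 ± 1.35 (SD, n = 4) in MGv and 0.441 ± 0.311 (SD, n = 4) in VPM. The order was therefore dLG, Cortex, MGv and VPM, of which the neighbours Cortex and MGv overlapped and the other neighbours did not. The dLG mean was 7.85 times that of Cortex, 24.7 times that of MGv and 134 times that of VPM. In edgeR's quasi-likelihood fit the log2 fold change (log2FC) of dLG against the mean of VPM and MGv was 5.83 (SE 0.376). For VPM against the mean of dLG and MGv it was -4.74 (SE 0.502), and for MGv against the mean of dLG and VPM -1.09 (SE 0.421). These 3 contrasts are built on the same thalamic libraries. Thalamus against cortex gave 1.66 (SE 1.34), an SE nearly as large as the value.

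*Six3* formed a staircase over the groups. It was 29.7, 25.9, 43.3, 14.8 and 30.5 CPM in dLG replicates a to e and 12.7, 10.7, 13.8 and 6.90 in VPM replicates a to d. The lowest dLG library, replicate d, stood just above the highest VPM library, replicate c. In MGv *Six3* was at 0.625, 1.14, 1.80 and 1.99 CPM. In Cortex it was at 0, 0.0983, 0.198 and 0.290 CPM, which is 12 counts in the 4 libraries together. No neighbouring groups overlapped, but the step from dLG to VPM rested on a narrow gap.

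The group means of *Six3* were 28.8 CPM ± 10.2 (SD, n = 5) in dLG, 11.0 ± 3.01 (SD, n = 4) in VPM, 1.39 ± 0.628 (SD, n = 4) in MGv and 0.146 ± 0.125 (SD, n = 4) in Cortex. The dLG mean was 2.62 times that of VPM, and the VPM mean 7.91 times that of MGv. Against Cortex, with its 12 counts, the ratio of means was 197. The ratio of the counts summed over each group, relative to the summed library sizes, was 260 with a 95% counting interval from 148 to 503, and gives deeper libraries more weight. Its log2FC was 2.89 (SE 0.281) for dLG, 0.76 (SE 0.292) for VPM and -3.65 (SE 0.37) for MGv, each against the mean of the other nuclei, and 6.84 (SE 1.32) for thalamus against cortex. *Sp9* and *Six3* therefore shared the dLG as the highest group and parted in VPM, where *Six3* was second and *Sp9* was lowest. Across all 17 libraries, Pearson's r of their log2(CPM + 0.5) was 0.38, a description of 17 libraries that fall into 4 groups.

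*Dlx1* and *Dlx2*, the first genes of the telencephalic cascade, had 31 and 54 counts in all 13 thalamic libraries together. *Dlx1* was 6.37, 21.6, 18.2 and 23.3 CPM in Cortex replicates a to d. In the thalamus its highest library was dLG replicate a at 0.468 CPM, from 10 counts. It averaged 17.4 CPM ± 7.64 (SD, n = 4) in Cortex and 0.116 ± 0.163 (SD, n = 13) in the thalamus, a log2FC for thalamus against cortex of -7.15 (SE 0.658).

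*Dlx2* was 4.71, 21.3, 27.4 and 32.7 CPM in the same cortical libraries, with a mean of 21.5 ± 12.2 (SD, n = 4). Its highest thalamic library was VPM replicate a, at 1.15 CPM from 24 counts. The groups did not overlap, and the log2FC was -6.69 (SE 0.736). The 3 nuclei overlapped with each other for both genes. Per kilobase of exon, the only scale on which genes are compared here, the cortical mean level was 7.54 CPM per kb for *Dlx2*, 3.22 for *Dlx1*, 1.49 for *Sp9*, 1.35 for *Dlx5*, 0.302 for *Sp8* and 0.157 for *Dlx6*. On the same scale *Sp9* reached 11.7 and *Six3* 5.29 CPM per kb in dLG.

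*Dlx5* and *Dlx6*, which act later in the cascade, were lower. *Dlx5* was 0.561, 2.95, 4.55 and 4.15 CPM in Cortex replicates a to d. In the thalamus it was found in 3 of 13 libraries. These were dLG replicate b at 0.573 CPM, dLG replicate c at 1.98 CPM from 42 counts, and VPM replicate d at 0.394 CPM. Both dLG libraries lay above Cortex replicate a, so the groups overlapped. The log2FC of thalamus against cortex was -3.70 (SE 1.14), and -5.13 without dLG replicate c.

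*Dlx6* stood at 0.367, 0.344, 0.346 and 0.434 CPM in Cortex, from 7 to 17 counts each, and at 1 count in each of dLG replicate b and VPM replicate b. The ratio of summed counts of *Dlx6*, Cortex over thalamus relative to library sizes, was 49.4 with a 95% counting interval from 12.8 to 422, and rested on these 2 thalamic counts. *Sp8*, the partner of *Sp9*, was 0.410, 1.77, 1.68 and 1.64 CPM in Cortex and had 5 counts in all 13 thalamic libraries. Its ratio of summed counts was 60.8 (95% counting interval 25.3 to 190). *Sp8* and *Sp9* thus differed in place, since the thalamic libraries that held the most *Sp9* held at most 1 count of *Sp8* each.

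The cortical libraries differed among themselves. Replicates a and b shared a library number series, and c and d shared another. *Sp9*, *Dlx2* and *Dlx5* were lower in both a and b than in c and d, and *Sp8*, *Dlx1* and *Dlx6* were not. Replicate a, which was the most deeply sequenced, was the lowest of the 4 for *Sp8*, *Sp9*, *Dlx1*, *Dlx2* and *Dlx5*, and not for *Dlx6*. Without it, the cortical mean rose from 21.5 to 27.1 CPM for *Dlx2*, from 17.4 to 21.0 for *Dlx1* and from 7.52 to 9.37 for *Sp9*. Marker sums moved with these genes in part. The sum of the 3 ependymal genes *Foxj1*, *Ccdc153* and *Tmem212*, which mark the ciliated cells lining the ventricle, was 2.87, 14.9, 18.8 and 65.8 CPM in replicates a to d. The sum of 4 endothelial and pericyte genes was 27.6, 33.2, 48.2 and 53.7 CPM. The sum of 5 excitatory neuron genes was 95.04, 112.4, 122.4 and 128.4 CPM, in the order of *Sp9* and *Dlx2*. That of 5 neuroblast genes was 444.1, 446.7, 516.3 and 469.8 CPM, also lowest in replicate a. The neuronal sum was 1327, 1612, 1338 and 1373 CPM, again lowest in replicate a, whereas the astrocyte sum was highest there at 14110 CPM. The sum of *Gad1*, *Gad2* and *Slc32a1*, which make GABA and load it into vesicles, had another order, at 22.8, 30.1, 15.6 and 26.1 CPM. In the thalamus the ependymal sum was between 0.283 and 6.06 CPM, so that 3 of the 4 cortical libraries exceeded every thalamic one. The part of these cells in the *Dlx* and *Sp* levels was not tested.

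**Figure D2:**
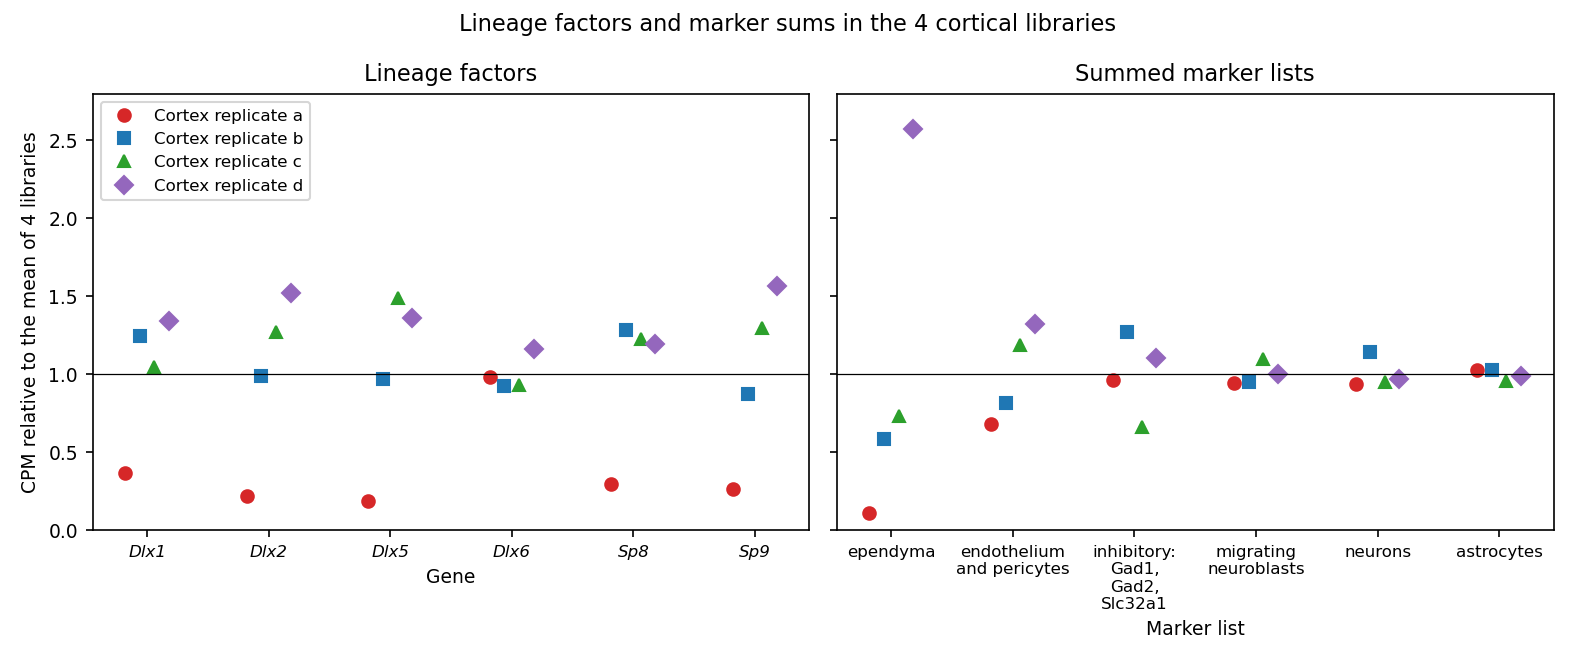
Levels in the 4 Cortex libraries divided by the mean of the 4 (vertical axis, ratio of CPM), for 6 lineage factors on the left and for 6 summed marker lists on the right. Colours and shapes stand for replicates a to d. Replicate a is lowest for 5 of the 6 factors and for every marker sum drawn except the inhibitory and astrocyte sums. The ependymal sum is 2.87 CPM there and 65.8 CPM in replicate d.

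Noncoding RNAs transcribed next to these genes were tested in the same fits. They were listed with earlier results of these data known, and as neighbours of genes chosen for their pattern they are not independent evidence of it. *Six3os1* (ENSMUSG00000093460), which runs on the minus strand from within the *Six3* locus, had its group means in the order of those of *Six3*. It averaged 28.8 CPM ± 17.8 (SD, n = 5) in dLG, 5.58 ± 1.93 (SD, n = 4) in VPM, 1.31 ± 0.891 (SD, n = 4) in MGv and 0.123 ± 0.164 (SD, n = 4) in Cortex. Within dLG, replicate c was highest and replicate d lowest for both genes, at 57.6 and 11.1 CPM for *Six3os1*. In edgeR's test with Benjamini-Hochberg adjustment over all genes *Six3os1* was higher in dLG (log2FC 3.42, SE 0.394, adjusted p = 0.000364), lower in MGv (log2FC -3.26, SE 0.503, adjusted p = 0.00335) and higher in the thalamus than in the cortex (log2FC 6.38, SE 1.42, adjusted p = 0.00655). For VPM against the mean of dLG and MGv it was not called, at a log2FC of -0.17 (SE 0.427, edgeR adjusted p = 0.846), where *Six3* was at 0.76. Exons of *Six3os1* and of another minus-strand gene overlap 5.03% of the exonic length of *Six3*. The library kit does not mark strand, so reads from this part cannot be assigned to a single gene by strand.

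*Dlx6os1* (ENSMUSG00000090063), an antisense RNA whose annotated span covers *Dlx6* and ends before *Dlx5*, also known as *Evf2*, was 2.57, 5.46, 6.83 and 8.06 CPM in Cortex replicates a to d. All 13 thalamic libraries together held 3 counts, which were in VPM replicate b. The ratio of summed counts, Cortex over thalamus relative to library sizes, was 441 with a 95% counting interval from 150 to 2140, and edgeR's adjusted p was 7.08e-08. *Dlx1as* (ENSMUSG00000084946), the antisense gene at *Dlx1*, overlapped between all groups. It averaged 0.713 CPM ± 0.282 (SD, n = 4) in Cortex, 0.723 ± 0.407 (SD, n = 5) in dLG, 0.693 ± 0.300 (SD, n = 4) in VPM and 0.441 ± 0.140 (SD, n = 4) in MGv. Its log2FC of thalamus against cortex was -0.19 (SE 0.48, edgeR adjusted p = 0.875), although 20.6% of its exonic length overlaps *Dlx1*.

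**Figure D3:**
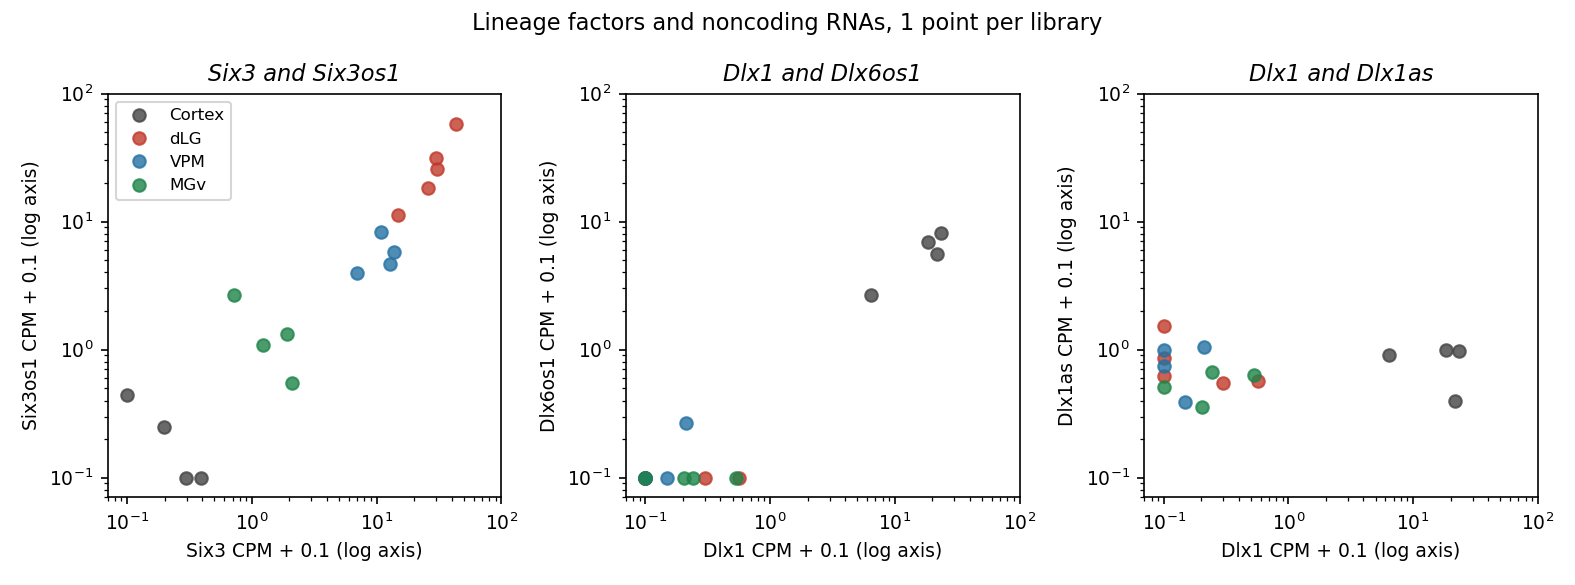
Level of a lineage factor (horizontal axis, CPM + 0.1, log scale) and of a noncoding RNA (vertical axis, CPM + 0.1, log scale) in each of the 17 libraries, coloured by group. *Six3* and *Six3os1* climb together from Cortex to dLG, *Dlx6os1* is high only in the 4 libraries with high *Dlx1*, all from Cortex, and *Dlx1as* stays between 0.259 and 1.42 CPM throughout.

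Other members of the same gene families were tested next. This list and those below were chosen with earlier results of these data known, so their shares are no independent evidence. Of 15 listed family members, 8 could be tested and none changed between thalamus and cortex, where edgeR called 5.45% of all genes higher and 5.93% lower. At an unadjusted p under 0.05 edgeR had 1 of them higher and 0 lower, and DESeq2 called 1 higher and 1 lower after adjustment. *Six2*, *Dlx3*, *Dlx4* and *Sp7* were too low to test. Of these, *Dlx4* averaged 1.155 CPM ± 1.302 (SD, n = 4) in Cortex and 0.0881 ± 0.127 (SD, n = 13) in the thalamus. The groups overlapped, as the lowest Cortex library was at 0. *Sp5*, a zinc finger gene that Wnt signals switch on, was higher in dLG (log2FC 2.05, SE 0.254, edgeR adjusted p = 0.000656) and lower in VPM (log2FC -1.58, SE 0.298, adjusted p = 0.00793). It averaged 26.0 CPM ± 10.2 (SD, n = 5) in dLG, 14.9 ± 2.60 (SD, n = 4) in Cortex, 8.08 ± 1.80 (SD, n = 4) in MGv and 4.94 ± 1.66 (SD, n = 4) in VPM, which is the order of *Sp9* with smaller steps. *Sp1*, the widely expressed founder of the family, fell by 0.76 on the log2 scale in VPM (SE 0.223, edgeR adjusted p = 0.0451) and *Six5* fell by 1.31 there (SE 0.479, adjusted p = 0.0942).

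The enzymes and carriers of GABA were examined next. *Gad1*, the main enzyme of GABA synthesis, was found in every library at 12.6 to 36.5 CPM, and its log2FC of thalamus against cortex was 0.51 (SE 0.188, edgeR adjusted p = 0.111). This difference was called in 8 of 22 alternatives. *Gad2*, the second such enzyme, was 9.87, 9.07, 7.74, 5.87 and 1.61 CPM in dLG replicates a to e and at most 1.99 CPM in any MGv or VPM library. It was higher in dLG (log2FC 3.37, SE 0.661, edgeR adjusted p = 0.0268) and lower in VPM (log2FC -3.01, SE 0.836, adjusted p = 0.0373). *Slc32a1*, the vesicular GABA transporter, was also higher in dLG (log2FC 3.34, SE 0.664, edgeR adjusted p = 0.0292) and lower in VPM (log2FC -3.62, SE 0.888, adjusted p = 0.0228). The loss of a library ended the *Slc32a1* call in dLG once, without dLG replicate b (adjusted p = 0.111). *Gad2* in VPM was lost without VPM replicate a or d, with an adjusted p of at most 0.111. Neither gene was called between thalamus and cortex. Their cortical means were 5.04 CPM ± 2.42 (SD, n = 4) for *Gad2* and 0.745 ± 0.605 (SD, n = 4) for *Slc32a1*.

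Within dLG, *Sp9* and the GABA genes did not have 1 common order. *Sp9* was highest in replicates b and c, *Gad2* in replicates a and b, and *Slc32a1* in replicate b. *Gad2* fell to 1.61 CPM in replicate e, where *Sp9* was 41.7 CPM, close to its level in replicate a, which had the highest *Gad2*. The summed level of the 10 neuronal genes was 1573 to 2029 CPM in dLG, 1080 to 2024 in VPM and 900.9 to 2343 in MGv. In dLG edgeR called none of these genes, where 0.941% of all genes were called higher and 0.214% lower. At an unadjusted p under 0.05 edgeR had 2 higher, and DESeq2 called none. Their median log2FC in dLG was 0.48, beside -0.01 over all genes.

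Factors that specify inhibitory neurons of the diencephalon and midbrain formed a short list. Of 11 listed, 6 could be tested between nuclei. In dLG 2 were higher and 0 lower with edgeR, where 0.941% of all genes were called higher and 0.214% lower. At an unadjusted p under 0.05 edgeR had 3 higher and 1 lower there, and DESeq2 called 3 higher and 0 lower. In VPM 1 was higher and 2 were lower, where 7.07% of all genes were called higher and 9.78% lower. In MGv edgeR called none, where 1.57% of all genes were called higher and 0.756% lower, with 0 at an unadjusted p under 0.05 and 1 higher with DESeq2. *Sox14*, a marker of the thalamic interneuron lineage, was 1.36, 6.78, 11.2, 3.33 and 2.72 CPM in dLG replicates a to e. It was at 0 in all Cortex libraries and was at most 0.1 CPM in VPM and 1.19 CPM in MGv. Its log2FC for dLG was 5.65 (SE 0.987, edgeR adjusted p = 0.0119). *Gata3*, which acts in the same lineage, averaged 1.99 CPM ± 1.49 (SD, n = 5) in dLG and had a log2FC of 3.26 (SE 0.772, edgeR adjusted p = 0.0793), which was no longer called in 12 of 18 alternatives. Per kilobase of exon the dLG mean was 2.46 CPM per kb for *Sox14* and 11.7 for *Sp9*. Within dLG, *Sox14* was, like *Sp9*, highest in replicates b and c, with replicate d next. The part of interneurons in the *Sp9* and *Six3* levels was not tested.

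Of 30 listed factors of telencephalic inhibitory lineages, 27 were tested between regions, with 8 higher in thalamic and 6 higher in cortical astrocytes, where 5.45% and 5.93% of all genes were called in these directions. Those higher in the cortex included *Meis2*, a homeodomain factor of the striatal lineage, with a log2FC of -2.31 (SE 0.23, edgeR adjusted p = 1.01e-06). *Meis2* averaged 75.1 CPM ± 11.8 (SD, n = 4) in Cortex and 15.2 ± 4.96 (SD, n = 13) in the thalamus. They also included *Lhx6*, the factor of medial ganglionic eminence interneurons, with -5.50 (SE 0.973, edgeR adjusted p = 0.000899). *Lhx6* averaged 3.53 CPM ± 2.03 (SD, n = 4) in Cortex. Those higher in the thalamus included *Nr2f2*, a nuclear receptor of caudal territories (log2FC 5.91, SE 0.457, edgeR adjusted p = 3.34e-08), *Zfhx3* (2.34, SE 0.263, adjusted p = 4.94e-06), *Zfp503* (3.14, SE 0.425, adjusted p = 5.01e-05) and *Ebf1* (3.81, SE 0.886, adjusted p = 0.00912). A telencephalic origin in the list therefore did not give 1 direction.

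In dLG, 3 of 26 tested telencephalic factors were higher and none was lower with edgeR, where 0.941% of all genes were called higher and 0.214% lower. At an unadjusted p under 0.05, 11 were higher and 2 lower, and DESeq2 called 6 higher and 1 lower. Among them were *Ebf1*, a striatal factor (log2FC 2.17, SE 0.416, edgeR adjusted p = 0.0237), and *Foxp1* (0.67, SE 0.152, adjusted p = 0.0648), which was called in 8 of 18 alternatives. Of the inhibitory subtype genes, *Calb2*, which encodes calretinin, was higher in dLG (log2FC 1.61, SE 0.225, edgeR adjusted p = 0.00172) and in MGv (1.63, SE 0.23, adjusted p = 0.00189). It averaged 78.2 CPM ± 25.6 (SD, n = 5) in dLG, 78.7 ± 35.6 (SD, n = 4) in MGv and 8.49 ± 1.71 (SD, n = 4) in VPM.

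Together, the lists of GABA genes, telencephalic factors, diencephalic factors and subtype genes held 67 genes. As these lists were drawn up with earlier results known, their shares beside those of all genes are a description only. Between regions 56 were tested, 15 were called higher and 11 lower in thalamic astrocytes, where 5.45% of all genes were called higher and 5.93% lower. The median log2FC was 0.34 beside 0.02 over all genes. In dLG 8 of 51 were higher and 0 lower (median 0.28 beside -0.01), where 0.941% of all genes were called higher and 0.214% lower. At an unadjusted p under 0.05 edgeR had 19 higher and 4 lower there, and DESeq2 called 13 higher and 2 lower. The 8 fell to 4 without dLG replicate b and to 5 without MGv replicate c or d or VPM replicate a, c or d. In VPM 2 were higher and 22 lower (median -0.45 beside -0.02), where 7.07% of all genes were called higher and 9.78% lower. The 22 fell to 11, 14 and 12 without VPM replicates a, c and d. *Calb2* (log2FC -3.24, SE 0.291, edgeR adjusted p = 2.97e-05), *Maf* (-2.34, SE 0.453, adjusted p = 0.00864), *Reln* (-1.93, SE 0.372, adjusted p = 0.0086) and *Nr2f2* (-0.85, SE 0.172, adjusted p = 0.0104) were among them. VPM was also the nucleus in which *Sp9* was lowest, and all 4 microglial markers were lower there, with a summed level of 5.49 to 9.48 CPM against 6.89 to 73.6 CPM in the other nuclei. The summed level of 5 genes of migrating neuroblasts, which are immature neurons, was 313.3 to 389.1 CPM in VPM, 443.2 to 668.3 in dLG and 426.6 to 605 in MGv. VPM did not overlap with the other nuclei in this sum, and of the 4 neuroblast genes tested 2 were lower there and 0 higher. The part of these cells in the lower counts of VPM was not tested.

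In MGv 7 of 51 were higher and 2 lower (median 0.16 beside 0.02), where 1.57% of all genes were called higher and 0.756% lower. *Pdyn*, an opioid peptide gene (log2FC 6.73, SE 0.949, edgeR adjusted p = 0.00362), *Calb1* (3.03, SE 0.422, adjusted p = 0.00185) and *Foxp2* (1.91, SE 0.27, adjusted p = 0.00189) were higher, and *Gsx2*, a progenitor factor upstream of the *Dlx* genes, was lower (-1.51, SE 0.245, adjusted p = 0.00456). The 2 lower genes were *Gsx2* and *Nkx2-1*. DESeq2 called 13 higher in MGv. Leaving out dLG replicate b, MGv replicate b, c or d, or VPM replicate a, c or d left 1 of the 2 lower genes.

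**Figure D4:**
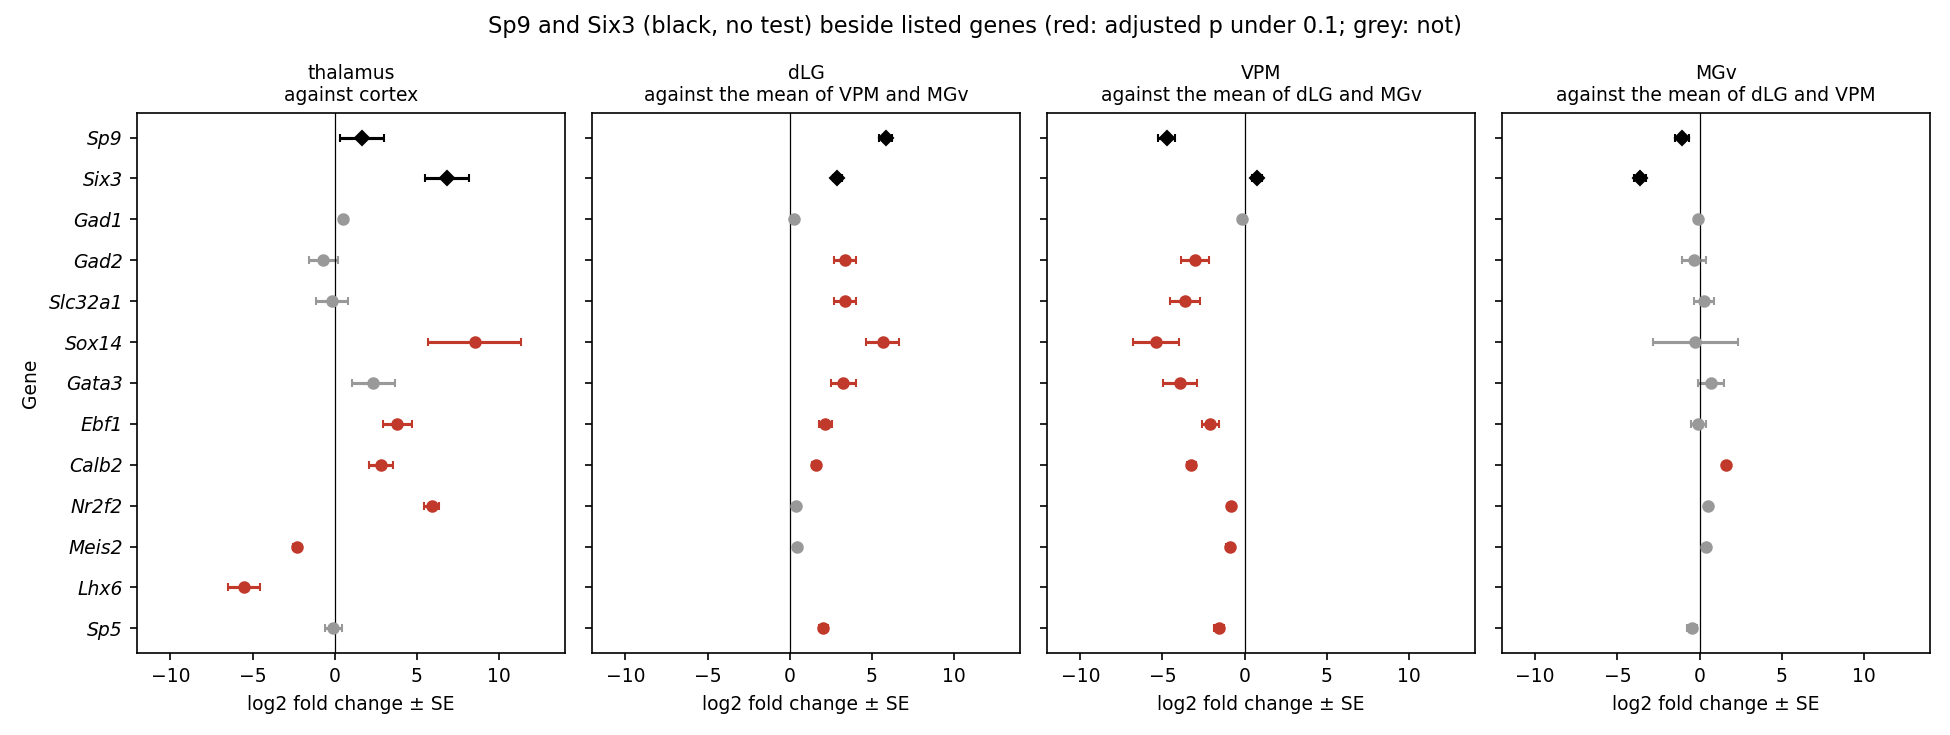
Log2 fold change with SE (horizontal axis) of *Sp9* and *Six3*, drawn in black without a test, and of 11 other genes in the 4 comparisons, red where edgeR's adjusted p is under 0.1 and grey where it is not. Every plotted gene fitted between nuclei, except *Six3*, lies right of 0 in dLG and left of 0 in VPM, in contrasts that share libraries. *Sp9* is at 5.83 and -4.74 there, and *Six3* at 2.89 and 0.76. *Lhx6* was fitted between regions only.

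Genes with the most similar pattern over the 17 libraries were ranked by Pearson's r of log2(CPM + 0.5), among all genes tested between regions. These values describe libraries that share region and depth. For *Six3* they were *Zic4* (r = 0.969), *Wnt3* (0.959), *Foxd1* (0.953), *Six3os1* (0.947) and *Fzd10* (0.935). *Zic4*, a zinc finger gene of the dorsal and diencephalic neural tube, averaged 33.7 CPM ± 10.8 (SD, n = 5) in dLG, 7.66 ± 1.32 (SD, n = 4) in VPM and 1.47 ± 0.994 (SD, n = 4) in MGv, and *Foxd1* averaged 24.6 ± 9.30 (SD, n = 5), 16.1 ± 3.72 (SD, n = 4) and 0.763 ± 0.853 (SD, n = 4). In Cortex both were at or under 0.0938 CPM on average.

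For *Sp9* the closest genes were *Nkd1* (r = 0.915), an inhibitor induced by Wnt signals, *Grm8* (0.912), *Scarf2* (0.884), *Sp5* (0.882) and *Akna* (0.865). *Nkd1* averaged 163.7 CPM ± 42.0 (SD, n = 5) in dLG and between 60.2 and 79.6 in the other groups, so its range was far smaller than that of *Sp9*. For *Dlx1* they were *Dlx6os1* (0.987), *Mme* (0.985), *Gm43489* (0.985), *Mettl11b* (0.983) and *Fezf2* (0.982). For *Dlx2* and *Sp8* the lists also held *Mettl11b*, *Dlx6os1* and *Mme*. *Fezf2*, the selector of deep-layer projection neurons, averaged 19.1 CPM ± 9.67 (SD, n = 4) in Cortex and was at 0 in all dLG and VPM libraries, so the genes closest to *Dlx1* included one of excitatory lineages. For *Dlx5* they were *Slc1a4* (0.891), *Sstr2* (0.885), *Phyhip* (0.878), *Rasgrp1* (0.877) and *Fkbp10* (0.875).

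Among the factors themselves, r was 0.967 between *Dlx1* and *Dlx2*, 0.967 between *Dlx1* and *Sp8* and 0.964 between *Dlx1* and *Dlx6*. It was 0.060 between *Dlx1* and *Sp9* and -0.735 between *Dlx1* and *Six3*. The sign of the log2FC of *Sp9*, *Six3*, *Dlx1*, *Dlx2* and *Dlx5* between regions stayed the same in 22 of 22 alternatives for each gene, and that of *Sp9* and *Six3* between nuclei in 18 of 18. These alternatives refit the libraries in which the genes were chosen, so a steady sign is no further evidence of the patterns. For *Sp9* between regions the sign came from dLG, as the Cortex mean of 7.52 CPM was above MGv (2.39) and VPM (0.441). *Sp8* and *Dlx6* were not fitted.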

How the data were processed

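The unit of the data is the raw count of reads per gene in each library, deposited by the authors without normalization. Per the labels, libraries were made with the SMARTer Ultra Low RNA kit, which does not mark strand, and read as 50-base single reads. The submitters' processing notes name FastQC 0.11.7, STAR 2.7.0d, SAMtools 1.9 and featureCounts of Subread 1.6.4, with the genome mm10. Each gene listed has at least 10 counts over the 17 libraries. Of 26556 Ensembl identifiers, 26548 were matched to symbols in a GRCm38 annotation.

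The genes described and the gene lists were chosen with earlier results of these data known. Genes named from the lists are those past the threshold, up to 6 of the lowest p for each comparison and direction. Some listed genes past it are counted and not named, and 1 item is not reported here. Levels are CPM scaled by TMM factors of edgeR 4.0.16 (R 4.3.3). Thalamus and Cortex (13 and 4 libraries), and each nucleus against the mean of the other nuclei, were compared with edgeR's robust quasi-likelihood test after filterByExpr, which kept 17856 and 17319 genes, at a Benjamini-Hochberg adjusted p under 0.1. The SE is the size of the log2FC over the square root of *F*. Nothing in the labels says that libraries came from separate litters, so p-values measure the spread between pools. Ratios to a group with few counts are ratios of summed counts relative to summed library sizes and carry exact binomial 95% counting intervals. The alternatives were DESeq2 1.42.0, its size factors, no filter on low counts, a term for the replicate letter or for the library number series, and fits without each single library. The series is given by the leading digits of the library number. All MGv libraries were of the same series, and the other groups were each split over series. Figures were drawn with matplotlib 3.10.9.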

Additional observations from a re-analysis of the deposited data

Results flagged for a closer look

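In each group of 4 or 5 libraries, the gap between the highest or lowest library and its nearest neighbour was compared with the range of the group (Dixon's test at 95%), over 94 groups of 29 genes with more than 3 counts in some library. The test looks within a group only, and 11 libraries stood apart. In 5 of these groups all other libraries were at 0, where any counts at all meet the criterion. The rate of about 1 in 20 that chance gives therefore applies to groups with counts in several libraries only.

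Among the lineage factors, *Sp8* in Cortex replicate a was low at 0.41 CPM, with its neighbour at 1.64 CPM. *Dlx5* in dLG replicate c was high at 1.98 CPM, with 0.573 CPM next and 3 libraries at 0. *Dlx2* in MGv replicate c was at 0.285 CPM and *Dlx5* in VPM replicate d at 0.394 CPM, with all other libraries of those groups at 0. *Dlx1as* was low in Cortex replicate b, at 0.295 CPM against 0.799 to 0.89 CPM.

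Of the other genes, *Sox14* was at 1.19 CPM in MGv replicate c, with 0.104 CPM next, and *Gata3* at 0.279 CPM in VPM replicate b, with the others at 0. *Lhx6* stood at 0.706 CPM in dLG replicate e and at 0.25 CPM in VPM replicate c, alone in each group. *Nr2f2* reached 142 CPM in dLG replicate e, with 93 CPM next. *Sp5* was at 2.45 CPM in VPM replicate c, with 5.66 CPM next.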

How the results depend on the processing

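The counts called over the 67 listed genes changed most between nuclei. With DESeq2, 13 were higher and 2 lower in dLG, and 13 were higher in MGv. The replicate letters did not pair the libraries (6 of 24 same-letter pairs had a correlation of deviations over 0.1, and 4 of 17 libraries correlated best with their own letter). Fitted all the same, a replicate block gave 5 higher and 1 lower in dLG and 1 lower in MGv. The library number series as a term gave 5 higher in dLG and 1 lower in MGv. Leaving out single libraries gave 4 to 11 higher and 0 to 1 lower in dLG, 0 to 2 higher and 11 to 24 lower in VPM, 6 to 10 higher and 1 to 3 lower in MGv, and 13 to 16 higher and 8 to 13 lower between regions. No other alternative moved these counts by more than 1.5 times. *Dlx5* moved from -3.70 to -5.80 with the series term. Of the 5 genes most like *Sp9* and *Six3*, 2 and 3 remained in the 13 thalamic libraries alone, and 0 of those of *Sp8*, *Dlx1*, *Dlx2* and *Dlx5*, which have few counts there. Each list was also ranked with 0.1 CPM added in place of 0.5. Over these alternatives together, the number of genes kept moved by more than 1.5 times in 10 cases and did not in 2. The cause of these changes was not tested. Levels under 3 counts in a library were not detectable at this depth.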
